A study of Triticum turgidum subsp. durum with 12 samples.

Results

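The leaf transcriptome of wild-type (WT) Kronos under short days was described from the gene models of its A and B subgenomes. Kronos is a spring variety (Vrn-A1) of durum wheat, a tetraploid with the genomes AABB. Members were the high confidence models with a mean of at least 1 TPM (transcript level per model length, scaled to a fixed total per library) over the 4 WT libraries, and each was placed on a chromosome by its identifier. There were 29481 of these among 75769 high confidence models (38.9%). The members comprised 14766 models on A, 14436 on B and 279 on U, the sequence that was assigned to no chromosome.

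The series held 12 RNA-seq libraries of 3 genotypes, of which only the WT was used here and neither of the mutants, phyB-null and phyC-null. The WT plants carried the Ppd-A1a allele, which reduces sensitivity to day length, and grew in 8 h of light and 16 h of darkness at 20 °C by day and 18 °C by night. Each library came from an individual plant of 8 weeks, sampled 4 h after dawn. The methods name the last fully expanded leaf, whereas the labels also give the third leaf. Libraries were run on more than 1 lane, and which WT library ran on which lane is not stated in the sources used here.

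Durum wheat arose from a cross between wild grasses that contributed the A and the B genome. Most genes therefore exist as an A and a B copy, called homeologs, which are very similar in sequence and usually lie on chromosomes of the same group (1A and 1B, for example). Chromosome 4A is a known exception, because it was rearranged by inversions and by exchanges with 5A and 7B. Reads that align equally well to both copies cannot be assigned, and the values below rest on uniquely mapped reads. A whole leaf was extracted, so fewer cells of a type and less RNA per cell cannot be told apart.

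The WT libraries held 39605997 to 45698270 counts on genes. The members took 87.5 to 88.3% of all TPM, the high confidence models under 1 TPM took 0.463 to 0.522%, and the low confidence models took the rest. The tissue label was checked against marker genes. All 22 models annotated with chlorophyll, photosystem, ribulose or ferredoxin were members, with a summed level between 10446 and 17900 TPM and a median of 191 TPM. Of 9 floral organ genes, 2 reached 1 TPM and the median was 0.0796 TPM, but the pair of PISTILLATA-like genes TaPI-A1 and TaPI-B1 was present at 6.62 to 10.1 TPM and 3.84 to 5.58 TPM. Of 7 genes related to the AGL12 and AGL17 genes of Arabidopsis roots, 6 reached 1 TPM and TaAGL17-B1 was the highest, at 6.94 to 17.8 TPM. These floral and root families were thus not all absent from the leaf.

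Most members were transcribed at low or moderate levels and a few models carried much of the total. The median member stood at 6.64 TPM, with quartiles at 2.83 and 17.2 TPM, and 11268 members exceeded 10 TPM. Only 97 models (0.329%) reached 1000 TPM, yet they held 30.5% of the members' TPM. The 4704 members between 1 and 2 TPM held 0.786% of it. Models that together made up 50% of the members' TPM numbered 556, or 1.89% of the members.

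The threshold of 1 TPM fell in a dense part of the distribution. There were 574 models between 1 and 1.1 TPM and 648 between 0.9 and 1 TPM, with medians of 59.4 and 51.9 counts per library. The member nearest the threshold was TraesCS4B01G031000, with 1.71, 0.591, 0.776 and 0.924 TPM in WT replicates 1 to 4. The nearest model below it was TraesCS5B01G081400, with 0.979, 1.08, 0.958 and 0.980 TPM. In all, 27474 members (93.2%) reached 1 TPM in every library, and 25083 high confidence models (33.1%) were listed at 0 TPM in all 4. Whether the latter are present in the Kronos genome was not examined.

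The A and B subgenomes contributed nearly equally, with a small excess on A. On A, 40.7% of the 36302 models were members, against 39.3% of the 36738 models on B. The summed level on A was 445453, 444991, 451277 and 453266 TPM in replicates 1 to 4, against 424426, 421072, 422445 and 422755 TPM on B. The A sum was higher in 4 of 4 libraries and the ranges did not overlap. The A share of the A plus B total was 51.5% ± 0.245 (SD, n = 4). The mean difference of 26072 TPM gave p = 0.13 in an exact two-sided sign-flip permutation test, which is the smallest p that 4 libraries allow. Without the 100 most abundant models, the A share was 50.7% ± 0.108 (SD, n = 4).

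The typical member hardly differed in level between the subgenomes. The median of the mean level was 6.74 TPM on A and 6.60 TPM on B, and the largest members had 8661 TPM on A and 9861 TPM on B. Within each library the median on A was higher by 0.03 ± 0.01 on the log2 scale (SD, n = 4; exact sign-flip permutation p = 0.13, the smallest possible). This difference shrank to 0.01 when members were required to reach 2 TPM and grew to 0.12 over all models above 0 TPM in every library. The 50% point of the TPM was reached by 276 models on A and 280 models on B. Between 5 and 20 TPM, 5530 members lay on A and 5256 on B, and above 1000 TPM these numbers were 51 and 44. The U models were a different set, since only 10.2% of 2729 were members and 3 models made up 50% of their TPM.

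**Figure D1:**
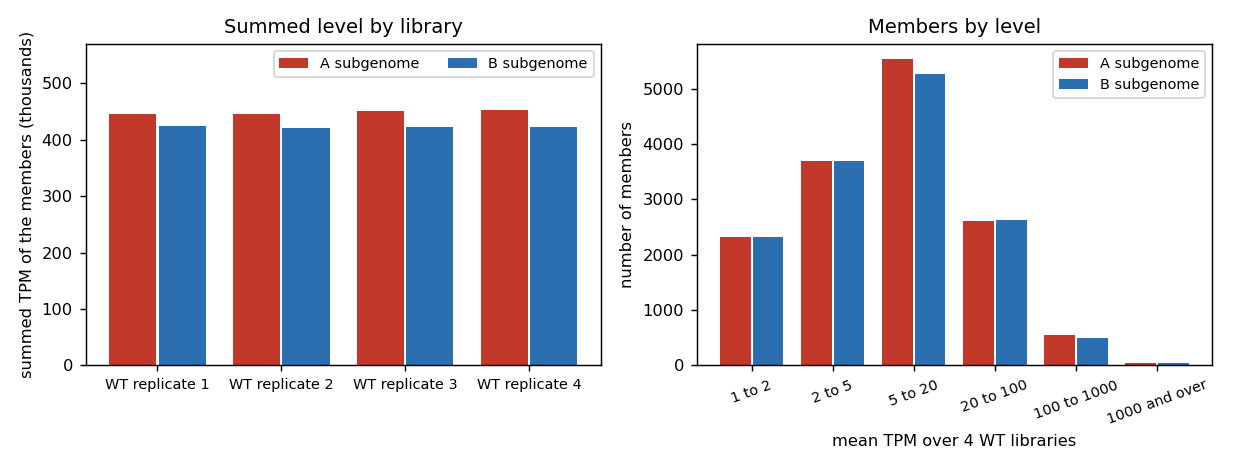
Left, summed TPM of the A (red) and B (blue) members in each WT library, with the axis starting at 0. Right, number of A and B members in 6 classes of mean TPM; the bars of the subgenomes have similar heights in every class, and the A sums (444991 to 453266 TPM) lie above the B sums (421072 to 424426 TPM).

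The chromosome groups differed in their A share, and the differences went in both directions. The A share was lowest in group 1, with 46.8, 46.2, 46.0 and 44.6% in replicates 1 to 4. It was highest in group 7, with 56.4, 56.3, 57.7 and 58.9%. In every library, groups 2, 4, 5 and 7 were above 50% and groups 1, 3 and 6 were below it. The share of A among the members differed less, between 48.9% in group 6 and 53.7% in group 4. Chromosome 7A has 5700 models and 7B has 5023, and 4A has 4999 against 3995 on 4B. In groups 4 and 7 the A chromosome thus had more models as well as the higher sum. In group 5 the A chromosome had the higher sum with fewer members, 2329 on 5A and 2401 on 5B. Chromosomes 4A, 5A and 7B took part in the exchanges named above, so these groups do not compare homeologs alone. The bearing of the exchanges on the A shares was not tested.

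The share in group 5 rested on a few very abundant models. Chromosome 5A summed to 93713 ± 3213 TPM and 5B to 77364 ± 2917 TPM (SD, n = 4 each). Without the 100 most abundant models of the whole leaf the A share of group 5 was 50.4% ± 0.196 (SD, n = 4), against 54.8% ± 0.215 with them. In group 1 it was 49.0% ± 0.451 without them and 45.9% ± 0.926 with them, and the same step turned group 2 to the B side (47.9% ± 0.347) and group 3 to the A side (50.3% ± 0.247). Groups 4 and 7 changed little, with 52.6% ± 0.210 and 56.4% ± 0.161. On 4B and 5B the top model alone held 14.3 and 12.7% of the chromosome's TPM.

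**Figure D2:**
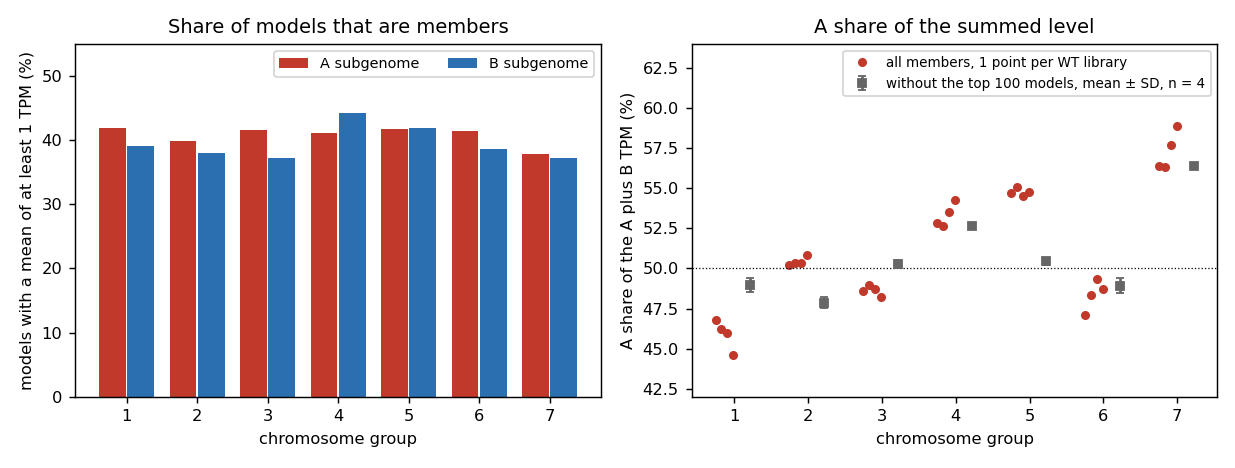
Left, percent of the high confidence models with a mean of at least 1 TPM on the A (red) and B (blue) chromosome of each group. Right, A share of the summed A plus B TPM per group, with red points for the 4 WT libraries and gray squares (mean ± SD, n = 4) without the 100 most abundant models; group 7 is highest with and without these models, and groups 1 and 5 approach the dotted line at 50% without them. The right axis does not start at 0.

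Models near the chromosome ends less often reached 1 TPM in the leaf than models in the middle. Only uniquely mapped reads were counted, so a low value does not show that a model was not expressed. Position was taken from the order of the identifiers, which follows the order along the chromosome. Of 14608 models in the outer 10% at either end, 30.0% were members, against 48.7% of the 14604 models in the central 20%. All 14 chromosomes had the lower share at the ends. The gap was 25.5 percentage points on 6B, 24.3 on 1B and 24.1 on 2B, and it was smallest on 5A (34.3 against 38.1%) and 5B (32.5 against 37.3%). The single libraries gave 29.0 to 30.3% at the ends and 47.9 to 49.0% in the middle. Genes are not replicates, so no test was made. The median level of the members varied less along the chromosomes, between 5.88 TPM in the first decile of the gene order and 7.52 TPM in the fourth decile.

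**Figure D3:**
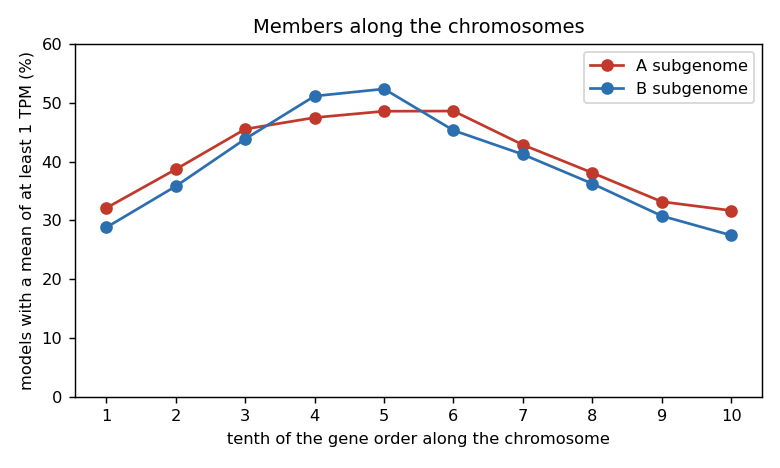
Percent of high confidence models with a mean of at least 1 TPM in each decile of the gene order, over the 7 A (red) and the 7 B (blue) chromosomes. Both lines rise toward the middle deciles and fall toward the ends; over both subgenomes the fifth decile is highest, at 50.5%, and the last is lowest, at 29.6%.

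The spread between WT plants was small for most members and exceeded counting error at all levels. The coefficient of variation (CV, the SD over the 4 libraries as a percent of the mean) had a median of 13.6% on A, 13.7% on B and 16.8% on U. For 30.5% of members the CV was under 10%, and for 801 members (2.72%) it exceeded 50%. Counting alone would give a median of 4.93% at the counts of these models, under the assumption that reads are independent draws. The median CV was 20.7% between 1 and 2 TPM and 11.5% between 20 and 100 TPM, against counting values of 10.7 and 2.62%. It was 14.8% for the 97 models of 1000 TPM or more, although counting would leave 0.415%.

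**Figure D4:**
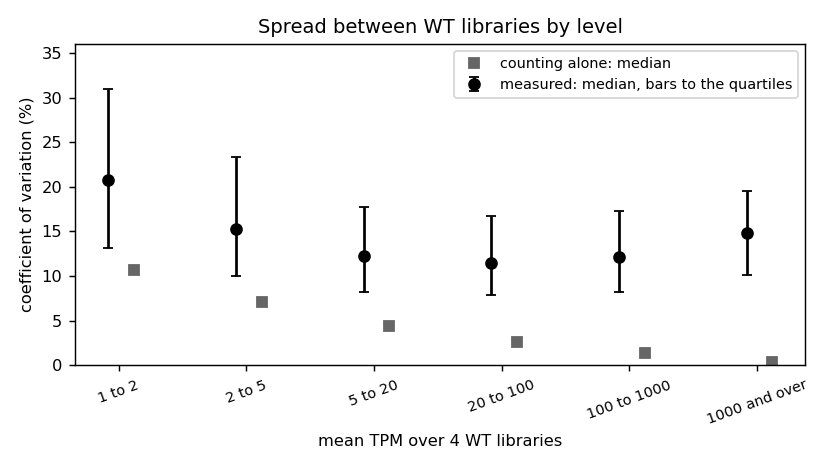
Coefficient of variation over the 4 WT libraries for members in 6 classes of mean TPM. Circles are medians with bars to the quartiles, and gray squares are the medians that counting alone would give; the measured medians lie above the counting medians in every class, and at 1000 TPM and over they stand at 14.8 and 0.415%.

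WT replicate 4 differed from the other 3 libraries in the order of the members' values. It gave the lowest value for 14527 members (49.3%) and the highest for 4064 (13.8%). The 100 most abundant models held 35.3% of the members' TPM in replicate 4, against 28.8 to 29.7% in replicates 1 to 3. Since TPM sums to a fixed total, the other models of that library are lower on this scale, with a median of 6.06 TPM against 6.62 to 6.97 TPM. After rescaling the libraries to the same upper quartile, replicate 4 was lowest for 26.7% of members and highest for 30.4%. The median CV was 11.1% without replicate 4, against 13.7% with it. Replicates 2 and 3 were the most alike, with a root mean square log2 difference of 0.31 over the members. It was 0.41 and 0.44 between replicate 1 and replicates 2 and 3, and 0.47 to 0.50 between replicate 4 and the others. These values are on TPM without rescaling, where replicates 1 to 3 exceeded replicate 4 by a median log2 difference of 0.13 to 0.19. They thus include this shift of replicate 4.

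Genes of photosynthesis and central metabolism led the described members. The tables of the study described 3143 of the 29481 members (10.7%), and the highest model of the leaf, TraesCS5B01G162800 at 9861 TPM (named here after its value was seen), was not among them. Small subunits of Rubisco, the enzyme that fixes CO2, were prominent on both subgenomes. TraesCS2A01G066700 had 4737, 4228, 5400 and 6871 TPM in replicates 1 to 4, and TraesCS2A01G066800 had 2998, 2492, 3464 and 4484 TPM. On B, TraesCS2B01G079200 had 1957, 1476, 2417 and 3334 TPM and TraesCS2B01G079100 had 487, 415, 658 and 857 TPM. All 4 of these genes were highest in replicate 4 and lowest in replicate 2. These near-identical neighbours can share reads, so the split among them is uncertain.

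Other abundant described members had a narrower range, though some came close to the Rubisco genes. Among the 10 most abundant on A and on B, their CV was up to 20.6% (TraesCS1B01G290000), against 21.6 to 34.5% for Rubisco. A polyubiquitin on 7A (TraesCS7A01G453500) averaged 763 ± 96.1 TPM. A glyceraldehyde-3-phosphate dehydrogenase (a glycolytic and Calvin cycle enzyme) on 2B, TraesCS2B01G048200, averaged 2449 ± 125 TPM. A low temperature and salt responsive protein on 2B (TraesCS2B01G177100) had 416, 407, 427 and 419 TPM, with a CV of 2.04%, and a Clp protease adapter on 2A (TraesCS2A01G022700) had a CV of 2.70%. A bZIP transcription factor on 5B (TraesCS5B01G059200) averaged 735 ± 132 TPM and one on 5A (TraesCS5A01G057500) 326 ± 46.5 TPM, and a homeobox-leucine zipper protein on 6B (TraesCS6B01G321100) averaged 506 ± 36.8 TPM (SD, n = 4 for each). The most abundant described members thus included regulators as well as enzymes.

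The most variable described members above 10 TPM included defence-related, MADS-box and bHLH genes. A WRKY factor on 2A (TraesCS2A01G489500) had 2.34, 11.7, 27.0 and 4.21 TPM and another on 3A (TraesCS3A01G209800) had 4.57, 17.2, 25.2 and 6.64 TPM. WRKY factors act in responses to pathogens and stress. An apyrase, an enzyme that splits extracellular ATP, had 9.07, 27.0, 6.62 and 1.61 TPM on 7A (TraesCS7A01G160900), and another on 4B (TraesCS4B01G363700) had 101, 289, 120 and 100 TPM. A glutathione S-transferase on 1B (TraesCS1B01G194700) had 9.23, 22.9, 36.6 and 7.82 TPM, and a receptor kinase on 6A (TraesCS6A01G228900) had 9.56, 32.96, 34.8 and 12.7 TPM. Replicates 2 and 3 gave the higher values of these genes, except the apyrases, where only replicate 2 was high.

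Other variable members had a different order of the libraries. A bHLH gene on 3B (TraesCS3B01G550200) had 20.5, 17.7, 7.42 and 54.9 TPM, and one on 3A (TraesCS3A01G489700) had 47.5, 48.5, 20.2 and 94.5 TPM. Replicate 4 was the highest and replicate 3 the lowest for both. A bHLH gene on 5A (TraesCS5A01G533300) differed, with 10.9, 27.7, 8.57 and 4.06 TPM, highest in replicate 2 and lowest in replicate 4. TaFLC-A3, a MADS-box gene of the FLC clade (FLC represses flowering in Arabidopsis), had 32.2, 28.2, 35.4 and 2.06 TPM. It was low in replicate 4 alone, with 41 counts against 493 to 711. Its CV was 62.3%, against 4.71% from counting at its mean count.

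The lists of transcription factor families held only models in the tables of the study, which were drawn up partly by expression differences between genotypes, so they cover families in part. Of the 20 families, GATA (31 of 37 listed models), CO-like (19 of 23) and C3H (41 of 50) had the largest shares of members. Of all high confidence models 38.9% were members, and of the 4407 that the tables of the study describe, 3143 were. MYB had the smallest, with 49 of 133, followed by C2H2 with 40 of 95. MYB-related models had the highest median level, 12.3 TPM. The WRKY list had the largest spread, with a median CV of 34.9% over 65 members, against 13.7% over all members. Its summed level was 269, 375, 436 and 256 TPM, and replicate 3 was highest for 38 of the 65 genes and replicate 4 lowest for 38. FAR1 (10.1%), GRAS (10.8%), G2-like (10.9%) and C3H (10.96%) had the smallest median CVs. Over all members, replicate 3 was highest for 26.0% and replicate 4 lowest for 49.3%, which bears on these counts. After rescaling to the same upper quartile, these shares of all members were 20.9 and 26.7%, but the WRKY genes were not recounted on that scale.

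The A share of the family sums ranged widely, but it depends on which copies the lists hold and does not describe whole families. It was 69.8% ± 3.45 for the MADS-box genes and 17.8% ± 0.823 for HD-ZIP (SD, n = 4). It was 25.7% ± 1.82 for the bZIP list, which holds the 5B gene at 735 TPM but not the 5A gene at 326 TPM named above (TraesCS5B01G059200 and TraesCS5A01G057500). In HD-ZIP, the 6B gene named above held 506 of 814 TPM. Among the MADS-box genes, VRN-A1 (TraesCS5A01G391700) held 104 of 717 TPM. Ribosomal protein models, which build the translation machinery, had 27 of 29 members, with sums of 1181, 1150, 1240 and 815 TPM. Replicate 4 was lowest for 19 of the 27, against 49.3% of all members. After rescaling to the same upper quartile the share of all members was 26.7%, but this list was not recounted on that scale. Heat shock models had 20 of 32 members, with sums of 316, 348, 349 and 358 TPM, and replicate 1 was lowest for 12 of these 20, against 21.4% of all members.

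The A and B copies of single genes were then compared within each library. In all, 306 pairs were formed, 43 from gene names that differ in the subgenome letter alone and 263 from a shared annotation and a similar place on chromosomes of the same group. They were not verified as homeologs, and those by annotation came from tables selected by expression differences. Of these, 263 pairs had at least 1 copy at 1 TPM and were tested with limma on the difference of log2(TPM + 0.1), with p-values adjusted over all 263 by Benjamini-Hochberg. At an adjusted p below 0.01, 207 pairs (78.7%) differed, with the A copy higher in 111 (42.2%) and the B copy higher in 96 (36.5%). Fold changes below are A over B on this log2(TPM + 0.1) scale, which understates the ratio of low genes, and errors are SE.

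Differences between copies were common and had no marked direction. The median log2 difference over the tested pairs was 0.07, with quartiles at -0.96 and 0.99. In 122 called pairs (46.4%) the copies differed by at least 2-fold, with A higher in 63 and B higher in 59, and a difference of at least 8-fold was found in 14 pairs with A higher and 9 with B higher. The copies did not overlap over the 4 libraries in 173 pairs (65.8%). In 224 pairs both copies reached 1 TPM, in 20 only the A copy did, and in 19 only the B copy. TPM divides by the length of each model, and only 125 tested pairs had lengths within 10% of each other, as implied by the counts and TPM. Of those, 46 were higher on A and 39 on B.

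Among the 43 named pairs, which consist mainly of flowering, MADS-box and hormone genes, 60 of 86 copies were members, 33 on A and 27 on B. At least 1 copy reached 1 TPM in 33 pairs. Of these 33, 17 were higher on A, 8 were higher on B and 8 did not pass the test, against 42.2 and 36.5% over all tested pairs. These genes were chosen by the study for its own questions, and their split was not tested against the other pairs.

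Of the MADS-box genes of the VRN1 clade, VRN1 and FUL2 were higher on A and FUL3 was higher on B in TPM but not in raw counts. VRN1, a MADS-box gene that promotes the transition to flowering, had 105, 115, 97.9 and 97.7 TPM from VRN-A1 (TraesCS5A01G391700) in replicates 1 to 4, against 12.3, 12.6, 8.60 and 15.2 TPM from VRN-B1 (TraesCS5B01G396600). Its log2 difference was 3.11 ± 0.12 (adjusted p = 7.98e-07), with no overlap. The paper gives Kronos as a spring wheat with Vrn-A1, and the bearing of this allele on the difference was not tested. FUL2 (TraesCS2A01G261200 and TraesCS2B01G281000), a related MADS-box gene, had 2.29, 2.17, 0.976 and 4.35 TPM from A, against 0.211, 0.244, 0.304 and 0.491 TPM from B (log2 difference 2.50 ± 0.29, adjusted p = 0.000151, and 3.33 in raw counts). FUL3 (TraesCS2A01G174300 and TraesCS2B01G200800) had 12.6, 7.77, 5.001 and 16.2 TPM from A and 28.7, 11.9, 6.94 and 27.6 TPM from B, and the B copy was higher in 4 of 4 libraries (log2 difference -0.75 ± 0.12, adjusted p = 0.000875). Both copies of FUL3 were low in replicates 2 and 3. The A model of FUL3 is 2.64 times as long as the B model, and its raw counts were higher than those of B, with a log2 difference of 0.63.

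FT-like genes encode small proteins, some of which move from leaf to apex and induce flowering. FT1 (TraesCS7A01G115400 and TraesCS7B01G013100) had 1.36, 7.02, 3.49 and 1.43 TPM from A and 7.67, 9.98, 5.95 and 2.60 TPM from B. The B copy was higher in 4 of 4 libraries, but the copies overlapped and the test was not passed (log2 difference -1.12 ± 0.31, adjusted p = 0.0120). On the raw counts of the same pairs, with length as an offset, the adjusted p was 0.00732 with edgeR and 0.00338 with DESeq2. FT2 (TraesCS3A01G143100 and TraesCS3B01G162000) showed the opposite side, with 3.42, 6.75, 3.61 and 3.73 TPM from A, against 0.912, 1.61, 0.957 and 0.350 TPM from B (log2 difference 2.18 ± 0.24, adjusted p = 0.000126). The FT-A2 model is shorter (0.304 of the FT-B2 length), and without division by length the log2 difference was 0.56 and the test was not passed. FT4 had 1.22, 5.01, 0.912 and 2.37 TPM from A against 0.304, 1.01, 0.176 and 0.473 TPM from B, so both copies peaked in replicate 2 (log2 difference 1.97 ± 0.16, adjusted p = 2.73e-05, and 1.26 in raw counts). Both copies of FT12 stayed under 1 TPM.

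Genes of the circadian clock and photoperiod pathway had modest differences in both directions, and those of GIGANTEA and ELF3 depended on the division by model length. GIGANTEA (TraesCS3A01G116300 and TraesCS3B01G135400), a clock output gene, had 24.7, 24.3, 21.95 and 22.7 TPM from A against 16.5, 17.7, 16.3 and 15.7 TPM from B (log2 difference 0.50 ± 0.06, adjusted p = 0.000144). ELF3 (TraesCS1A01G443200 and TraesCS1B01G477400), a member of the evening complex of the clock, had 10.8, 10.9, 9.55 and 9.55 TPM from A against 15.1, 14.2, 13.6 and 13.7 TPM from B (log2 difference -0.47 ± 0.07, adjusted p = 0.000425). For both pairs the copies did not overlap, and the model lengths differ (A over B, 0.556 for GIGANTEA and 1.74 for ELF3). Without division by length the direction was reversed for both, at log2 differences of -0.35 and 0.33.

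PPD1 encodes a pseudo-response regulator that promotes flowering in long days. PPD-A1 (TraesCS2A01G081900), here the Ppd-A1a allele with its promoter deletion, had 4.84, 5.54, 4.21 and 4.69 TPM, against 9.75, 9.54, 11.5 and 10.03 TPM from the PPD-B1 model (TraesCSU01G196100), which is on no chromosome of the assembly. The log2 difference was -1.07 ± 0.12 (adjusted p = 0.000134) at similar lengths (A over B, 0.945). The values are from 1 time of day. Of the CYCLING DOF FACTOR genes, which repress CONSTANS in Arabidopsis, CDF1d was higher on A (51.9 ± 8.08 TPM against 37.96 ± 2.61 TPM on B, log2 difference 0.44 ± 0.06, adjusted p = 0.000552). CDF1c was at 28.9 ± 2.29 TPM on A and 30.0 ± 3.12 TPM on B, with A higher in 2 of 4 libraries (adjusted p = 0.480; SD, n = 4).

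The MADS-box genes of the SVP clade were well expressed, and each was higher on A in TPM, although in raw counts TaSVP3 was lower on A and the difference of TaSVP1 was small (log2 difference 0.24). In Arabidopsis, SVP represses flowering. TaSVP1 (TraesCS6A01G313800 and TraesCS6B01G343900) had 75.8, 76.3, 86.9 and 73.0 TPM from A against 38.1, 35.9, 36.2 and 34.7 TPM from B (log2 difference 1.102 ± 0.06, adjusted p = 2.19e-06). TaSVP2 differed less, with 34.1 ± 3.43 TPM on A and 27.8 ± 3.32 TPM on B (log2 difference 0.29 ± 0.05, adjusted p = 0.000912), and TaSVP3 had 41.7 ± 3.24 TPM on A and 24.6 ± 4.22 TPM on B (log2 difference 0.77 ± 0.09, adjusted p = 0.000166; SD, n = 4). The TaSVP3 copy on A has 0.241 of the length of the B model, and its raw counts were lower than those of B (log2 difference -1.27).

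SOC1-like genes, whose Arabidopsis relative integrates flowering signals, included a pair in which the B copy was close to 0. TaSOC1-A3 on 5A (TraesCS5A01G515500) had 39.6, 44.6, 41.4 and 35.1 TPM, against 0.303, 0.258, 0.301 and 0.189 TPM from TaSOC1-B3 on 4B (TraesCS4B01G346700). The B copy had 5 to 8 counts per library, at equal model length (log2 difference 6.80 ± 0.11, adjusted p = 6.56e-08, and 5.02 to 7.22 with a pseudocount of 1 and of 0.01 TPM). The distal part of 5A corresponds to 4B because of the old exchange with 4A. TaSOC1-1 had 11.4, 15.7, 18.9 and 21.6 TPM from A against 0.662, 0.833, 1.99 and 3.86 TPM from B (log2 difference 3.41 ± 0.27, adjusted p = 2.30e-05, and 4.40 in raw counts). TaSOC1-2 was higher on B, with 2.29 ± 0.683 TPM on A and 4.20 ± 0.750 TPM on B (log2 difference -0.875 ± 0.13, adjusted p = 0.000512), but its A model has 1.98 times the length and the raw counts were nearly equal, at a log2 difference of 0.08.

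Both copies of TaFLC1 and the A copy of TaFLC3 varied strongly between plants. TaFLC1 had 13.8, 3.67, 2.92 and 2.17 TPM from A and 28.7, 6.11, 4.84 and 7.43 TPM from B. Replicate 1 was high in both copies, and B was higher in 4 of 4 libraries (log2 difference -1.05 ± 0.18, adjusted p = 0.00126). TaFLC2, on 5A and 4B, was higher on A (5.08 ± 1.84 against 1.62 ± 0.407 TPM; SD, n = 4; log2 difference 1.54 ± 0.15, adjusted p = 6.68e-05). For TaFLC3, the A values of 32.2, 28.2, 35.4 and 2.06 TPM stood beside 28.7, 19.6, 11.6 and 14.5 TPM from B, and the A copy was higher in replicates 1 to 3 and lower in replicate 4. The log2 difference was -0.12 ± 0.63 (adjusted p = 0.866), and it was 0.76 (adjusted p = 0.0252) without replicate 4.

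Hormone and other regulatory genes included strong differences in each direction. FPF-like1, related to a flowering promoting factor of mustard and Arabidopsis, had 14.3, 33.3, 33.1 and 18.5 TPM from A against 0, 0.841, 0.163 and 0.0823 TPM from B, where the counts were 0, 9, 2 and 1 (log2 difference 6.49 ± 0.33, adjusted p = 2.31e-06, and 4.30 to 7.75 with the other pseudocounts). GA20ox4, of the family of enzymes that make active gibberellin precursors, had 2.13, 1.1, 0.831 and 3.96 TPM from A, against 1 to 12 counts per library from B (log2 difference 3.44 ± 0.26, adjusted p = 2.02e-05, and 1.37 to 4.78 with the other pseudocounts). VIL2, a VIN3-like chromatin gene, had 20.2 ± 1.31 TPM on A and 6.68 ± 0.230 TPM on B (log2 difference 1.58 ± 0.07, adjusted p = 1.19e-06), and a log2 difference of 0.65 without division by length. BZR1-like, in brassinosteroid signalling, was also higher on A, at 5.94 ± 0.655 against 3.92 ± 0.194 TPM (adjusted p = 0.00132; SD, n = 4).

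The pairs with the B copy higher included BIM2 (TraesCS5A01G251400 and TraesCS5B01G249500), whose Arabidopsis relatives act in brassinosteroid signalling, with 1.68, 1.97, 1.81 and 2.004 TPM from A against 17.0, 26.0, 18.8 and 17.7 TPM from B (log2 difference -3.33 ± 0.11, adjusted p = 4.85e-07, and -2.42 in raw counts). PYL4-like1, of the abscisic acid receptor family, had 12.03, 6.66, 8.08 and 8.61 TPM from A against 34.5, 23.4, 27.2 and 25.3 TPM from B (log2 difference -1.65 ± 0.07, adjusted p = 1.30e-06). TAR2 of auxin synthesis was at 5.25 ± 0.954 TPM on A and 5.68 ± 0.306 TPM on B (adjusted p = 0.295). IAA12, an auxin response repressor, had 0.0448 TPM from A in replicate 2 but 1.17 to 2.64 TPM in the others, against 0.717 to 3.08 TPM from B (adjusted p = 0.108). SPL14-like was at 1.53 ± 0.362 TPM on A and 1.1 ± 0.406 TPM on B (adjusted p = 0.0478; SD, n = 4).

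Of the floral and root MADS-box pairs, TaPI1 was higher on A, with 8.74, 6.62, 10.1 and 9.27 TPM, against 3.84, 4.18, 5.58 and 4.25 TPM from B (log2 difference 0.94 ± 0.11, adjusted p = 0.000204). TaAGL17-1 was higher on B, with 7.72 ± 0.533 TPM on A and 13.9 ± 4.79 TPM on B (adjusted p = 0.00827; SD, n = 4), but the copies were nearly equal in replicate 2 (7.14 and 6.94 TPM). This call was lost under 7 of 16 alternatives, among them leaving out replicate 1, 3 or 4 (adjusted p = 0.0252 to 0.0542 with limma). TaAGL12-1 was at 1.51 ± 0.423 TPM on A and 1.55 ± 0.354 TPM on B (adjusted p = 0.736), and TaAGL12-2 at 4.11 ± 0.647 and 3.22 ± 0.895 TPM (adjusted p = 0.0394; SD, n = 4). The 10 pairs that were not tested were FT12, GA2ox11, TaAG2, TaMADS32-1, TaMIKC1, TaPI2, TaSEP1-2, TaSEP1-4, TaSEP1-6 and TaSTK2. None of their copies exceeded 0.896 TPM in any library.

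**Figure D5:**
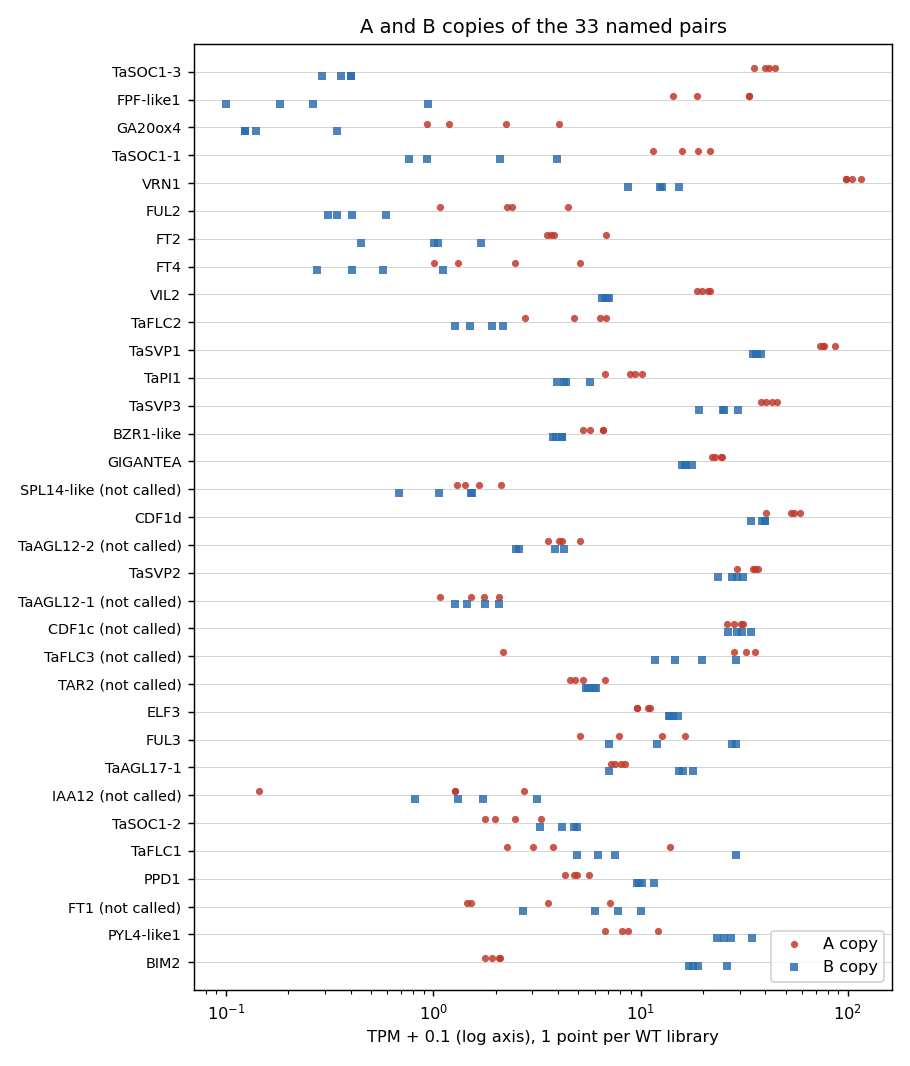
TPM + 0.1 (log axis) of the A copy (red circles) and the B copy (blue squares) of the 33 named pairs with at least 1 copy at 1 TPM, with 1 point for each WT library. Pairs run from the largest A excess at the top (TaSOC1-3, log2 difference 6.80) to the largest B excess at the bottom (BIM2, -3.33); the 8 pairs that did not pass the test are marked.

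The pairs matched by annotation gave 94 with the A copy higher, 88 with the B copy higher and 48 that did not pass the test. One of the largest A excesses was in a pathogenesis-related protein PR-4 of group 2, with 15.8, 18.0, 34.0 and 23.5 TPM from TraesCS2A01G551000 against 0.116, 0.0577, 0 and 0.152 TPM from TraesCS2B01G582100 (log2 difference 7.002 ± 0.35, adjusted p = 2.19e-06). Its order against the other pairs with a B copy near 0 changed with the pseudocount, and the log2 difference was 4.41 with 1 TPM and 8.48 with 0.01 TPM. A cytochrome P450 of group 2 was alike in this, with 27.6, 36.4, 31.2 and 18.7 TPM from TraesCS2A01G022800 against 0.107, 0.477, 0.200 and 0.0311 TPM from TraesCS2B01G032000 (log2 difference 6.73, and 4.59 and 7.54 with these pseudocounts). A peroxidase, a cinnamoyl-CoA reductase of lignin synthesis, a bHLH protein, a zinc finger homeodomain protein, another P450, an endo-xylanase and a pollen Ole e 1 family protein completed this side, with log2 differences from 2.996 to 4.86. So did the Rubisco small subunits TraesCS2A01G066700 and TraesCS2B01G079100 (log2 difference 3.17, and 2.06 in raw counts), which belong to a local gene family in which copies cannot be matched with certainty.

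On the other side, a vacuolar-processing enzyme, a protease of the vacuole, had the largest B excess of the pairs named here under each pseudocount tried, with 0.485, 0.663, 0.508 and 0.301 TPM from TraesCS3A01G528900 against 26.0, 26.7, 29.4 and 25.7 TPM from TraesCS3B01G597800 (log2 difference -5.55 ± 0.16, adjusted p = 1.80e-07). A late embryogenesis abundant protein Lea14 of group 1 had 5.62, 9.66, 6.55 and 6.81 TPM from TraesCS1A01G423800 against 74.7, 88.9, 75.9 and 77.3 TPM from TraesCS1B01G455900 (log2 difference -3.47 ± 0.09). The abundant glyceraldehyde-3-phosphate dehydrogenase of group 2 had 350, 341, 357 and 364 TPM from TraesCS2A01G035100 against 2583, 2463, 2467 and 2281 TPM from TraesCS2B01G048200 (log2 difference -2.79 ± 0.05, adjusted p = 6.56e-08). A P450, a ketoacyl-CoA thiolase, a glycosyltransferase, a methyltryptophan oxidase, a saccharopine dehydrogenase, an NB-ARC disease resistance protein and a metallo-beta-lactamase-like protein had log2 differences from -3.96 to -2.90. In these 20 pairs the larger copy was the same in every library, as the rule required, and the pairs were chosen for their size. The size of some depended on the processing. Over the alternatives, the log2 difference was 0.82 to 3.34 for TraesCS2A01G122200 and TraesCS2B01G144300. It was -4.75 to -1.19 for TraesCS2A01G019700 and TraesCS2B01G024200, but 2.90 to 3.07 for TraesCS6A01G036600 and TraesCS6B01G051100.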

How the data were processed

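The authors sequenced leaf RNA of 4 WT plants as 100 bp single-end reads, aligned them to the wheat assembly of the IWGSC (RefSeq v1.0) with GSNAP, and used HTSeq to count reads with a unique position on each gene model. Strand use is not given in the sources used here. Per the file headers, the authors deposited TPM for each model and library, whose length definition is not stated, and in another table raw counts per gene without normalization. The ratio of counts to TPM gave the implied length of each model. The counting CV covers counting error only. The members and lists were chosen with earlier results of these data known.

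Members had a mean of at least 1 TPM over the WT libraries. A and B copies were compared with limma 3.58.1 in R 4.3.3 on the within-library difference of log2(TPM + 0.1), with a trended prior and Benjamini-Hochberg adjustment, called at an adjusted p below 0.01. Both copies are measured in the same plant, so the library pairs them. Where both copies reached 1 TPM, the correlation of their log2 levels over the 4 libraries was above 0 in 203 of 224 pairs. Unmatched genes were not compared in this way, and replicate 4 was lowest for 49.3% of all members. The count thus does not show that copies of a pair move together more than other genes. Pairs by annotation were required to lie within 0.1 of each other in relative gene order, which removed 51 of 314. The text names all 43 pairs by name, the 10 largest called differences without overlap in each direction among the pairs by annotation, the 10 most abundant described members on A and on B, and the 10 most variable ones above 10 TPM, the last 2 kinds with examples only. On 2000 simulated pairs, the test called 100% of 2-fold and 94% of 1.5-fold differences and 1 of 1800 unchanged pairs. The simulation gave every pair the same spread, left most pairs unchanged and held no error in model length. These rates may therefore not hold for the real pairs, of which 78.7% were called. Alternatives were other thresholds, pseudocounts, filters and pair sets, edgeR 4.0.16 and DESeq2 1.42.0 on the counts with the implied length as offset, counts without length, no replicate block, and leaving out each library. Low confidence models and transcript contigs were left out.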

Additional observations from a re-analysis of the deposited data

Results flagged for a closer look

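A value was taken as far from the others where its gap to the nearest exceeded Dixon's critical share of the range for 4 values, and 182 sets of values were examined this way. Of these, 7 were marked (3.85%), and chance marks about 1 in 20.

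Replicate 4 was far from the others in the share of the members' TPM held by the 100 most abundant models (gap 0.859 of the range). It was also high for a glyceraldehyde-3-phosphate dehydrogenase on 2A, TraesCS2A01G344600, with 641, 671, 670 and 833 TPM (gap 0.844). Replicate 1 was high for TraesCS1B01G290000, annotated as Plant/T7H20-70 protein, with 1187, 803, 844 and 798 TPM (gap 0.883). It was also high for both copies of TaFLC1, with gaps of 0.871 for TaFLC-A1 and 0.891 for TaFLC-B1. Replicate 2 was high for the apyrase TraesCS4B01G363700 (gap 0.894) and for FT-A2 (gap 0.908). The cause was not tested for any of these.

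Outside the members, 7866 low confidence models of 114690 (6.86%) also had a mean of at least 1 TPM, and low confidence models held 11.2 to 11.98% of all TPM. The transcript contigs of the count table, which have no TPM here, carried 18616 to 22794 counts per library, or 0.0464 to 0.0516% of the total. Neither set entered the comparisons.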

How the results depend on the processing

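The A share of the summed TPM stayed above 50% under every alternative: 51.4 to 51.6% without single libraries, 50.9% with low confidence models, 50.7% without the 100 most abundant models and 51.1% on raw counts. The A minus B difference of the median log2 TPM was 0.0634 at 0.5 TPM, 0.0066 at 2 TPM and 0.12 without a filter, and 0.02 to 0.03 without single libraries. The median CV was 11.1 to 14.01% without single libraries, the lowest without replicate 4. The gap between chromosome ends and middle was -19.1 points at 0.5 TPM, -16.5 at 2 TPM, -19.5 for the outer 5% and -16.4 for the outer 20%. Member counts stayed within 1.5 times under all alternatives.

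Of the pairs, 188 to 204 were called without single libraries, 205 to 209 with another pseudocount, 208 with edgeR or DESeq2, 192 without division by length and 168 with no replicate block, where CDF1d, FT4, FUL3, TaAGL17-1, TaFLC1 and TaSVP2 lost their calls. Smaller sets of pairs had 24 calls (17 on A, 7 on B) by name alone, 102 (52 and 50) with BLAST hit and accession both matched and 85 (46 and 39) with lengths within 10%. With at least 2-fold also required, 122 (63 and 59) of the 263 pairs were called. Without division by length, 13 of 176 shared calls changed sign. Log2 differences then had the other sign for ELF3 (0.33), FUL3 (0.63), GIGANTEA (-0.35), TaSOC1-2 (0.0764) and TaSVP3 (-1.27); the lengths of these models differ. Those of TaSVP1 and VIL2 were 0.24 and 0.65. TaFLC3 changed sign with edgeR (0.0875). The sets of library scaling factors tried with edgeR gave the same values, because copies are compared within each library. Each set is still counted among the alternatives. Leaving out single libraries gave -0.69 to 0.76 for TaFLC3 (the highest without replicate 4), -0.0911 to 0.0174 for CDF1c (the highest without replicate 1) and -0.088 to 0.0155 for TaAGL12-1 (the highest without replicate 3). FT1 passed the test under 7 of 15 alternatives and TaAGL17-1 lost its call without any 1 of replicates 1, 3 and 4 (adjusted p 0.0252 to 0.0542). Depth limits the low copies, such as TaSOC1-B3 with 5 to 8 counts.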

Other observations

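Several annotation lists were not described above. Kinase models, many of them receptors, had 205 members of 253 listed, with sums of 2787, 3111, 2916 and 2356 TPM. Of the 205, 121 were lowest in replicate 4, against 49.3% of all members. After rescaling to the same upper quartile the share of all members was 26.7%, but the kinase models were not recounted on that scale. Disease resistance models had 40 members of 65, with a median of 4.68 TPM and sums of 514, 579, 538 and 408 TPM. Cytochrome P450 models had 30 members of 48 and, over the copies listed, an A share of 63.2% ± 1.72 of their summed TPM (SD, n = 4). Histone models, with 15 members of 17, had sums of 296, 225, 197 and 192 TPM, and 9 of the 15 were highest in replicate 1, against 29.1% of all members. Cold-related models (WCOR, dehydrin or cold acclimation) had 5 members of 7, a median of 29.6 TPM and sums of 136, 138, 131 and 126 TPM. CO-like models, zinc finger genes of the CONSTANS family, summed to 942, 1020, 972 and 1064 TPM. Replicate 4 was highest for 11 of 19, against 13.8% of all members. After the same rescaling the share of all members was 30.4%, but the CO-like models were not recounted on that scale.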
